A study of Homo sapiens with 20 samples.

Results

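The 9 histone genes examined here were H2BC21, H2BC12 and H2BC5, which encode the core histone H2B, H2AC6, which encodes core H2A, H1-2 and H1-10, which encode linker histones, H2AZ1, which encodes the variant H2A.Z, and H3-3A and H3-3B, which both encode the variant H3.3. They are 9 of 19617 genes with a counted 3′ UTR and 9 of 98 histone genes. They were listed by name as histone genes with polyadenylated messages, and the list was chosen by the reads of H2BC21, which were higher under dCBP-30 at 2 h in these same libraries, so every value at 2 h is a description without a test. The cells were MM1.S, an established multiple myeloma line labeled as wild type. They received 10 nM dCBP-30, a degrader that joins a CBP/p300 bromodomain ligand to a cereblon ligand, or the vehicle DMSO, for 2, 6 or 24 h. Each of these 6 groups had 3 libraries, and each dCBP-30 group had a time-matched DMSO group as its control. All 18 libraries were labeled with 4-thiouridine (4sU) during the last hour before harvest. Another 2 MM1.S libraries had no 4sU, and their labels give neither treatment nor time. In SLAM-seq, alkylated 4sU in newly made RNA is sequenced as C instead of T. Reads that carry such a conversion are called T>C reads below, and total reads also include RNA made earlier.

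Most core and linker histone messages are made in S phase, are not polyadenylated, and end a few bases after a short stem-loop that is bound by SLBP (stem-loop binding protein) and cut with the help of the U7 particle. Replication-independent variants such as H2A.Z and H3.3 have ordinary introns, long 3′ UTRs and poly(A) tails and are made throughout the cell cycle. Several replication-dependent genes can also yield a longer, polyadenylated message that reads through the stem-loop or splices around it, a form known from differentiating and non-dividing cells. The libraries were primed at the 3′ end on poly(A), so a histone message without a tail is poorly captured.

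The stem-loop was printed here because it separates the members into kinds. The counted 3′ UTR held it in H2BC21, H2BC12, H2AC6 and H1-2, and the shorter annotated 3′ UTR of H2BC5 held it as well. In the windows below, 5′ to 3′, capitals mark the 16 bases of the stem-loop.
H2BC21: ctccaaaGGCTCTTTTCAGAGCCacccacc
H2BC12: ccccaaaGGCTCTTTTAAGAGCCactta
H2BC5, shorter 3′ UTR: tcccaaaGGCTCTTTTAAGAGCCacgca
H2AC6: acccaaaGGCTCTTTTCAGAGCCcccctac
H1-2: cccaaaaGGCTCTTTTCAGAGCCacca
Across 19564 genes with a 3′ UTR sequence, 75 (0.383%) held such a stem-loop, and 68 of these were among the 98 histone genes.

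What followed the stem-loop differed between members. The counted 3′ UTR of H2BC21 (ENSG00000184678, chr1:149884459-149886259, minus strand, hg38) was 1801 bases long and ran 1729 bases past the stem-loop. That of H2AC6 (ENSG00000180573) was 1187 bases long and ran 1128 bases past it. It joined a first piece at chr6:26124626-26124749, plus strand, to a second at chr6:26138054-26139116, in a transcript annotated as a target of nonsense-mediated decay. The counted 3′ UTR of H2BC5 (ENSG00000158373) left its first exon after chr6:26158551-26158559, plus strand, before the stem-loop, and ended in chr6:26170975-26171349, for a length of 384 bases. By contrast, H1-2 (ENSG00000187837, chr6:26055740-26055786, minus strand) and H2BC12 (ENSG00000197903, chr6:27146361-27146417, minus strand) were counted over 47 and 57 bases that end 4 and 5 bases after the stem-loop, with no AATAAA polyadenylation signal. The RefSeq gene of H2BC12 extends to 27138293, so a longer form would not have been counted here. The remaining members had no stem-loop: H1-10 (ENSG00000184897, chr3:129314771-129315260, minus strand), H2AZ1 (ENSG00000164032, chr4:99948088-99948461, minus strand), H3-3A (ENSG00000163041, chr1:226071480-226072019, plus strand) and H3-3B (ENSG00000132475, chr17:75776434-75778594, minus strand). AATAAA lay in the last 50 bases of the counted 3′ UTR of H2BC21, H2BC5, H2AC6, H1-10, H2AZ1 and H3-3B, and of 60.9% of all genes. By this signal, the name polyadenylated histone genes rests on the annotated 3′ end for those 6 members. H1-2 and H2BC12 end just after a stem-loop without the signal. H3-3A had neither a stem-loop nor the signal in its last 50 bases, so this search does not settle its 3′ end.

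Between 12440700 and 18729086 reads per library fell on genes. T>C reads made up 4.71% to 8.62% of them with 4sU and 0.794% and 0.809% without. At 24 h, the ratio of counted conversions to T>C reads was lower under dCBP-30 (1.47 ± 0.0432) than under DMSO (2.48 ± 0.0253; SD, n = 3 each), and the part of this in the T>C results at 24 h was not tested. Levels below are in RPM, reads relative to the depth of the library after TMM scaling, which multiplies each depth by a factor that centers the bulk of genes. The TMM factors lay between 1.29 and 1.32 under dCBP-30 at 24 h and between 0.893 and 0.934 under DMSO, and results that rest on them are named. Adjusted p-values come from the quasi-likelihood test of edgeR, adjusted by Benjamini-Hochberg across every gene tested (10115 in T>C reads and 12303 in total reads), and SE is the standard error of a log2 fold change. A gene was called when its adjusted p was under 0.05 and its change over 2-fold. Nothing in the labels places the libraries of a group in separate cultures, so p-values measure the spread between these libraries, which may be technical. Plasma cell genes were present, led by MZB1, SDC1 and XBP1, and 7 of 11 were called lower at 6 h and 11 of 11 at 24 h in total reads. Of 12 markers of other blood cells, CD68, CD3E and HBB had enough reads to test, with mean levels of 9.47, 5.27 and 8.48 RPM under DMSO and 16.8, 12.9 and 1.47 RPM under dCBP-30 at 24 h. The part of these markers in the values of the histone genes was not tested.

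At 24 h, H2AC6, H2BC21 and H2BC5, core histone genes counted over extended or spliced 3′ UTRs, rose in total reads and H2AZ1 fell, and in T>C reads the H3.3 genes moved in opposite directions. In total reads at 24 h, H2AC6, H2BC21, H2BC5 and H1-2 were called higher and H2AZ1 and H2BC12 lower, among all 9 members tested. Of all genes, 15.1% were called higher and 16.0% lower in that comparison. Without the TMM factors, 3689 genes were called higher and 1061 lower at 24 h, against 1861 and 1970 with them. At 6 h, H2AC6 and H2BC21 were called higher in total reads and no member lower, with 7.54% and 8.64% of all genes called. In T>C reads, 7 members could be tested. H2AC6 and H1-2 were called higher at 6 h (2.41% of all genes) and none lower (17.0%), and at 24 h H2AC6 and H2BC21 were called higher (2.27%) and H2AZ1 and H3-3A lower (31.0%). Scaling to the T>C reads of each library instead, which moves the median gene at 24 h from -0.68 to -0.02 on the log2 scale, gave 779 genes higher and 1491 lower at 24 h, against 230 and 3140. The median log2 fold change of the members tested was 0.79 at 6 h and 0.98 at 24 h in total reads, beside 0.03 and 0.06 for all genes. In T>C reads the medians were 0.72 and 0.19, beside -0.27 and -0.68. H2BC21 and H2AC6 reached the T>C test mainly through their dCBP-30 libraries (1 and 2 of 9 DMSO libraries had the minimum count of 10 scaled to depth, against 7 and 9 of 9 dCBP-30 libraries), and H2BC12 reached the test of total reads in the same way (1 against 3), so these counts and medians describe the members and support nothing about them. At any fold, 3 members passed the adjusted p higher and 1 lower in T>C reads at 6 h (3.07% and 21.2% of all genes), 3 and 3 at 24 h (2.88% and 36.9%), 4 and 1 in total reads at 6 h (18.8% and 21.4%), and 6 and 3 at 24 h (28.8% and 29.7%). Between 6 and 24 h the change differed for 3 members higher and 2 lower in total reads (15.5% and 16.5%) and for 0 higher and 2 lower in T>C reads (2.94% and 9.1%). At 2 h, the comparison that chose the list, H2BC21, H2AC6 and H2BC12 were over 2-fold higher in total reads and H2BC21, H2AC6 and H1-2 in T>C reads, and no member was over 2-fold lower, all without a test. Of all genes, 1.62% were called higher and 7.12% lower in T>C reads at that time, and 0.463% and 1.24% in total reads. Those shares also need the adjusted p, a rule that H2BC12 in total reads and H1-2 in T>C reads do not meet. The share of all genes by fold alone was not counted, so the members are not to be set against these shares.

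**Figure D1:**
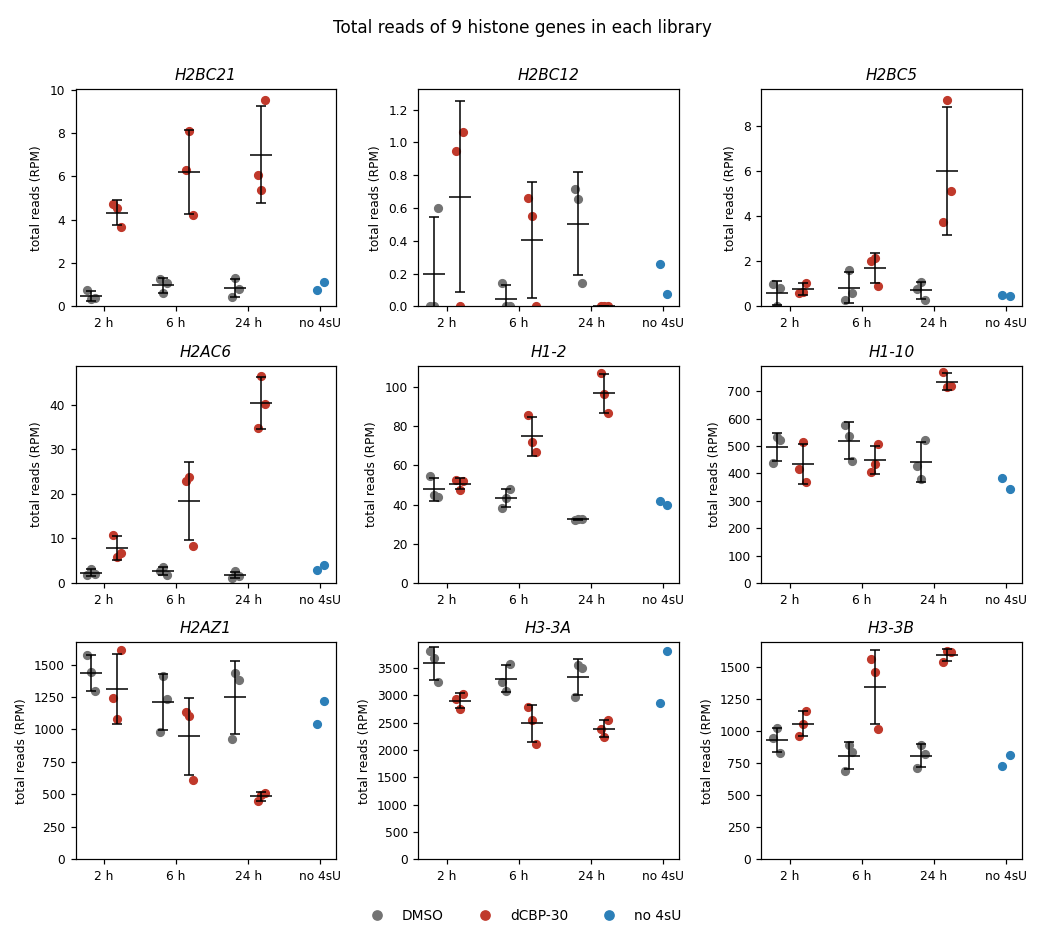
Total reads (RPM, linear axes from 0) of the 9 histone genes in each library, for DMSO and dCBP-30 at 2, 6 and 24 h and the 2 libraries without 4sU; points are libraries, and bars the mean ± SD of 3. At 24 h the dCBP-30 libraries lie above all DMSO libraries for H2BC21, H2BC5, H2AC6, H1-2, H1-10 and H3-3B and below them for H2BC12, H2AZ1 and H3-3A. The share of all genes set apart in this way was not counted. At 24 h 28.8% of all genes passed the adjusted p higher and 29.7% lower at any fold. The position of H3-3A rests on the TMM factors (log2 fold change 0.04 without them).

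H2BC21, a replication-dependent H2B gene in the histone cluster of chromosome 1, had few reads in each DMSO library and more under dCBP-30 at every time. At 2 h it had 10, 5 and 5 total reads under DMSO and 55, 69 and 59 under dCBP-30. In RPM these were 0.772, 0.353 and 0.374 against 4.75, 4.55 and 3.69. Every dCBP-30 library lay above every DMSO library, with a log2 fold change of 3.10 (SE 0.49) given as a description. Its T>C reads at 2 h numbered 0, 2 and 0 under DMSO and 37, 23 and 32 under dCBP-30, a ratio of 43.6 given as a description. Both DMSO reads came from replicate 2, and leaving it out moved the fitted log2 fold change from 5.30 to 8.13, a value that depends on the prior count. T>C reads were 50.3% of its reads under dCBP-30 at 2 h (exact Clopper-Pearson 95% interval 42.8% to 57.7%) and 3.70% in the libraries without 4sU. Such intervals cover counting error only, since reads without molecular identifiers are not independent molecules.

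At 6 h the total reads of H2BC21 were 1.27, 0.603 and 1.08 RPM under DMSO and 6.28, 8.09 and 4.23 RPM under dCBP-30, a log2 fold change of 2.65 (SE 0.44, adjusted p = 3.5e-05, edgeR). At 24 h they were 0.453, 1.31 and 0.797 RPM against 6.08, 5.39 and 9.55 RPM, or 3.01 on the log2 scale (SE 0.45, adjusted p = 2.9e-06, edgeR). The groups did not overlap at either time, and no difference between the changes at these times was detectable (24 h minus 6 h 0.37, SE 0.62, adjusted p = 0.70, edgeR). New RNA was less even. At 6 h T>C reads were 8, 0 and 11 under DMSO and 17, 22 and 8 under dCBP-30, and these groups overlapped in RPM (log2 fold change 1.05, SE 0.94, adjusted p = 0.48, edgeR). At 24 h they were 1, 1 and 3 against 9, 21 and 31, with no overlap (3.23, SE 1.07, adjusted p = 0.012, edgeR). H2BC21 entered this test mainly through its dCBP-30 libraries, so the p-value carries no weight of its own. The call also rests on few reads and was lost without replicate 3 of dCBP-30 (adjusted p = 0.052), replicate 1 of DMSO (0.053) or replicate 2 of DMSO (0.056), with the background subtracted (0.054) and with reads summed over transcripts (0.061). Under dCBP-30, T>C reads made up 14.7% of its reads at 6 h and 15.8% at 24 h, and under DMSO 44.2% and 12.5%. The share of 44.2% pools 19 of 43 reads, with single libraries from 0% to 68.8%.

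The promoter of H2BC21 (RefSeq start site, GRCh38.p14, chr1:149886633-149886932, minus strand) is shown because its window overlaps that of a neighbor whose total reads were lower at 24 h. Capitals mark the CCAAT boxes and the octamer ATTTGCAT, each searched on both strands, and none of these matches overlaps another here.
H2BC21 promoter: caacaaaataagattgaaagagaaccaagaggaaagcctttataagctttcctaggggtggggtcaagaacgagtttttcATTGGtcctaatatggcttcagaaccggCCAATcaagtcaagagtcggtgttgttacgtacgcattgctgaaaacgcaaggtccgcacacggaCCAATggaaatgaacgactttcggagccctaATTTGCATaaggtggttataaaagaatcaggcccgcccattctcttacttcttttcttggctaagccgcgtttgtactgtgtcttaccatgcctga
H2AC20, which encodes H2A, starts 236 bases away on the plus strand, and the 300-base windows of the pair share 265 bases. H2AC20 is outside the 9 members and was singled out after its values were seen. Its total reads were 2.93 ± 0.644 RPM under DMSO and 0.471 ± 0.214 RPM under dCBP-30 at 24 h (SD, n = 3 each), or -2.62 as a log2 fold change (SE 0.60, adjusted p = 0.00058, edgeR), against 3.01 for H2BC21. At 6 h it was -0.31 (adjusted p = 0.69, edgeR). The counted 3′ UTR of H2AC20 is 47 bases long and ends 5 bases after its stem-loop. That of H2BC21 is 1801 bases long, so unlike ends were counted for the pair, and the use of the promoter was not measured. The octamer, a binding site of the OCT1 factor in H2B promoters, was in the promoters of H2BC21, H2BC12, H2AC6 and H3-3B, 4 of 9 members, and in 1.77% of 35116 promoter windows of the same length. CCAAT was in 8 of 9 members and 34.6% of windows, and TATAAA in 7 of 9 and 11.5%. A member was counted when any of its windows matched, and H3-3A, H2BC12 and H2BC5 had more than 1 window. The percentages are of single windows, so the 2 are not alike. A match describes these letters and no binding was measured.

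H2BC5 and H2BC12, both H2B genes of the large histone cluster on chromosome 6, had too few T>C reads to fit. H2BC5 had 13, 0 and 11 total reads under DMSO at 2 h and 7, 10 and 17 under dCBP-30, which overlapped. At 6 h its total reads were 0.283, 1.61 and 0.610 RPM under DMSO and 2.03, 2.16 and 0.919 RPM under dCBP-30, and the groups still overlapped (log2 fold change 1.02, SE 0.73, adjusted p = 0.28, edgeR). After 24 h the values were 0.777, 1.07 and 0.290 RPM against 3.73, 9.18 and 5.15 RPM, a log2 fold change of 3.05 (SE 0.74, adjusted p = 0.0011, edgeR) with no overlap. Most of this rise was in the spliced 3′ UTR, which had 34 reads over the DMSO libraries and 331 over the dCBP-30 libraries at 24 h, whereas the shorter 3′ UTR that ends at the stem-loop had 20 and 33. T>C reads were 11 of these 331 reads, 3.32% (exact Clopper-Pearson 95% interval 1.67% to 5.87%), and 15 of 34 under DMSO, 44.1% (27.2% to 62.1%), of which 12 came from replicate 1, where all 12 reads were T>C reads. For H2BC12 the counts were near the floor: 0, 0 and 8 reads under DMSO and 11, 0 and 17 under dCBP-30 at 2 h, and 2, 0 and 0 against 11, 10 and 0 at 6 h. At 24 h it had 11, 11 and 2 reads under DMSO and 0 in all 3 dCBP-30 libraries, at least 9.58-fold lower with a floor of 3 reads over the group (adjusted p = 0.022, edgeR). That call was lost when any of the 3 dCBP-30 libraries was left out (adjusted p = 0.058 in each case), and no T>C read of H2BC12 was counted in any library. H2BC12 reached the test of total reads mainly through its dCBP-30 libraries at 2 and 6 h, so these p-values carry no weight of their own.

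H2AC6, an H2A gene of the same cluster, had the largest log2 fold change in total reads among the members at 24 h. At 2 h it had 22, 45 and 28 reads under DMSO and 125, 88 and 109 under dCBP-30, a log2 fold change of 1.73 given as a description. At 6 h its total reads were 2.68, 3.55 and 1.69 RPM under DMSO and 23.0, 23.9 and 8.33 RPM under dCBP-30, a log2 fold change of 2.80 (SE 0.37, adjusted p = 1.7e-06, edgeR). At 24 h they were 1.17, 2.62 and 1.67 RPM against 34.8, 46.5 and 40.3 RPM, or 4.46 on the log2 scale (SE 0.39, adjusted p = 9.9e-10, edgeR). The groups were apart at every time, and replicate 3 of dCBP-30 at 6 h was the lowest of its group. The change at 24 h exceeded that at 6 h by 1.66 (SE 0.52, adjusted p = 0.017, edgeR), although not without replicate 2 of DMSO at 6 h (1.39, adjusted p = 0.072). At 24 h the 3′ UTR that ends at the stem-loop had 5 reads over the DMSO and 12 over the dCBP-30 libraries, against 85 and 2231 for the counted one. Another annotated 3′ UTR of H2AC6, 1039 bases long, leaves the first exon after chr6:26124626-26124633, before the stem-loop, and shares the second piece. It held 3856 reads over the 20 libraries, against 3901 for the counted one, so these reads do not tell a message that runs past the stem-loop from one that splices around it.

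T>C reads of H2AC6 were more numerous under dCBP-30 at each time. They numbered 5, 7 and 7 under DMSO and 40, 28 and 32 under dCBP-30 at 2 h. The counts were 3, 10 and 0 against 32, 35 and 28 at 6 h (log2 fold change 2.62, SE 0.80, adjusted p = 0.010, edgeR) and 15, 14 and 0 against 28, 68 and 45 at 24 h (2.05, SE 0.74, adjusted p = 0.021, edgeR). The groups did not overlap in RPM at any time, but H2AC6 entered this test mainly through its dCBP-30 libraries, so these p-values are given as the fit returned them and carry no weight of their own. No difference between the changes at 24 and 6 h was detectable (-0.57, SE 1.05, adjusted p = 0.81, edgeR). The call at 6 h was lost without replicate 3 of DMSO (adjusted p = 0.075), and that at 24 h without replicate 2 of dCBP-30 (0.11) or replicate 3 of DMSO (0.12). Both were lost with reads summed over transcripts (0.053 and 0.10). Under dCBP-30, T>C reads made up 31.1% of its reads at 2 h, 9.97% after 6 h and 6.32% after 24 h, and under DMSO 20%, 11.2% and 34.1%. The last share pools 29 of 85 reads, with single libraries from 0% to 83.3%. The promoter of H2AC6 (GRCh38.p14, chr6:26123922-26124221, plus strand) is shown beside that of H2BC21, with the same capitals, since both genes were higher at each time in total reads.
H2AC6 promoter: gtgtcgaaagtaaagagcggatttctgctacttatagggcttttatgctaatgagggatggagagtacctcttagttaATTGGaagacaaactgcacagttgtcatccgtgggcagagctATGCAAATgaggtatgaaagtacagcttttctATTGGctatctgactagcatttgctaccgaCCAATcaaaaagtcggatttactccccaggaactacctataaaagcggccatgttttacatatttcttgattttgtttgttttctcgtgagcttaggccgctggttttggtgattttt

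**Figure D2:**
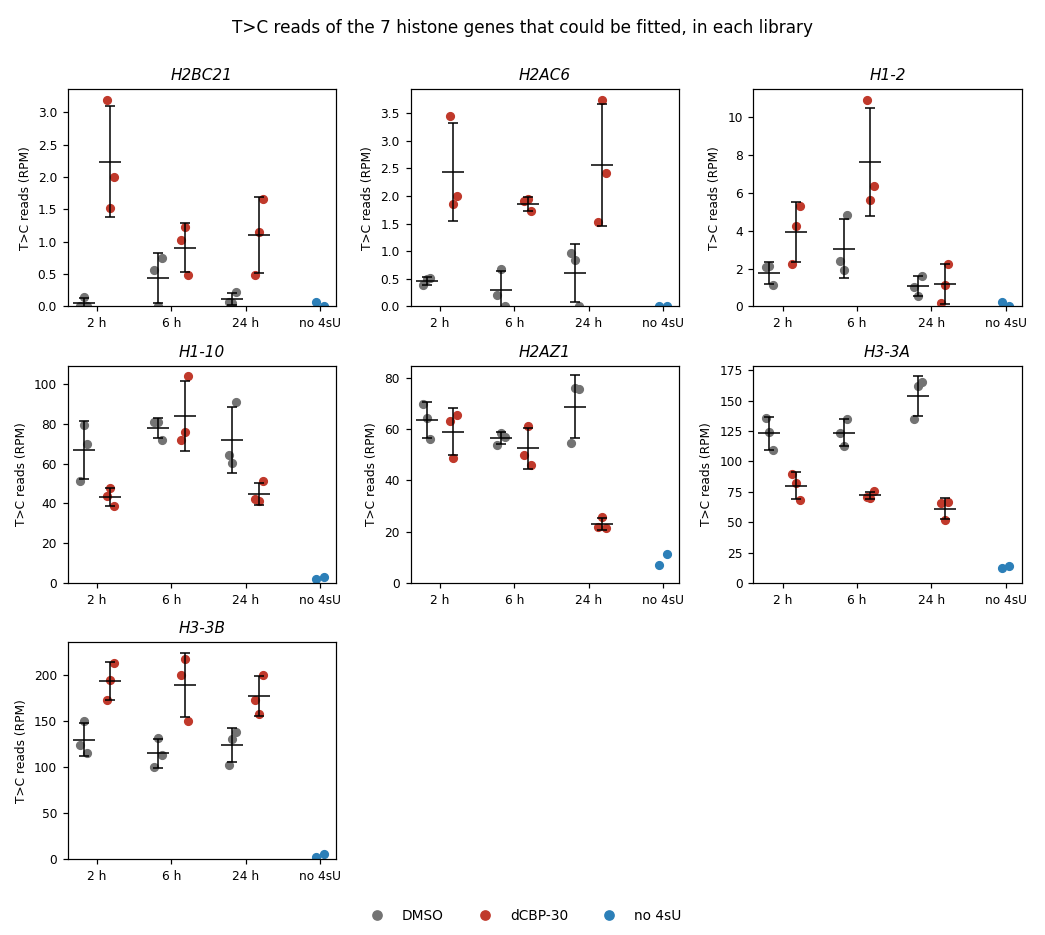
T>C reads (RPM, linear axes from 0) in each library of the 7 histone genes that could be fitted; points are libraries, and bars the mean ± SD of 3. The dCBP-30 libraries of H2AC6 and H3-3B lie above all DMSO libraries at each time, and those of H2AZ1 fall below them at 24 h, with the 2 libraries without 4sU near 0. How many of all genes are set apart in this way was not counted.

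Of the linker histones, H1-2 rose in total reads at 6 and 24 h, and H1-10 rose at 24 h. H1-2, a replication-dependent H1 gene, had total reads of 54.4, 44.8 and 43.9 RPM under DMSO and 52.4, 47.6 and 52.0 RPM under dCBP-30 at 2 h, which overlapped. At 6 h they were 38.4, 43.4 and 47.7 RPM against 85.9, 71.8 and 66.7 RPM, a log2 fold change of 0.79 (SE 0.13, adjusted p = 2.3e-05, edgeR). After 24 h total reads were at 32.3, 32.7 and 32.7 RPM against 107, 96.5 and 86.8 RPM, or 1.57 (SE 0.13, adjusted p = 1.9e-10, edgeR). The groups were apart at both times, and the change grew by 0.78 from 6 to 24 h (SE 0.18, adjusted p = 0.0017, edgeR). T>C reads of H1-2 numbered 27, 30 and 15 under DMSO and 26, 64 and 85 under dCBP-30 at 2 h. They were 34, 29 and 71 under DMSO and 183, 101 and 104 under dCBP-30 at 6 h (log2 fold change 1.32, SE 0.48, adjusted p = 0.035, edgeR). That call was lost without replicate 1 of dCBP-30 (adjusted p = 0.23), replicate 1 of DMSO (0.13) or replicate 2 of DMSO (0.17), and was at 0.15 with the background subtracted and 0.19 with reads summed over transcripts. At 24 h they were 16, 9 and 22 against 3, 21 and 42, which overlapped (0.19, SE 0.54, adjusted p = 0.82, edgeR). Its counted 3′ UTR holds 9 T positions, so few conversions can be read in it.

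H1-10, a replication-independent linker histone, had T>C reads of 51.2, 79.5 and 70.0 RPM under DMSO and 43.5, 47.8 and 38.5 RPM under dCBP-30 at 2 h, with no overlap. It had total reads of 578, 535 and 445 RPM under DMSO and 404, 436 and 506 RPM under dCBP-30 at 6 h. These overlapped (log2 fold change -0.21, SE 0.13, adjusted p = 0.21, edgeR; 0.11 without the TMM factors). By 24 h the values were 428, 378 and 521 RPM against 771, 715 and 718 RPM, with no overlap (0.73, SE 0.13, adjusted p = 4.8e-05, edgeR). Its T>C reads moved the other way at 24 h, from 64.3, 60.3 and 91.1 RPM to 42.1, 41.2 and 51.1 RPM (log2 fold change -0.68, SE 0.17, adjusted p = 0.00065, edgeR). That decrease equals the shift of the median gene and was -0.02 (adjusted p = 0.93) with libraries scaled by their T>C reads and -0.16 (adjusted p = 0.52) without the TMM factors. At 6 h T>C reads were 81.1, 80.7 and 71.9 RPM against 72.0, 75.8 and 104 RPM and overlapped (0.11, SE 0.16, adjusted p = 0.70, edgeR). Between 6 and 24 h the change of H1-10 differed by 0.94 in total reads (SE 0.19, adjusted p = 0.00036, edgeR) and by -0.79 in T>C reads (SE 0.23, adjusted p = 0.016, edgeR). The difference in T>C reads was lost under both of those scalings (adjusted p = 0.23 and 0.11), with reads summed over transcripts (0.086) and without replicate 3 of DMSO at 24 h (0.13), of DMSO at 6 h (0.051) or of dCBP-30 at 6 h (0.083).

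H2AZ1, one of the genes for H2A.Z, a variant found at promoters and enhancers, fell at 24 h, with no detectable difference at 6 h. Its total reads were 1575, 1441 and 1295 RPM under DMSO and 1244, 1081 and 1612 RPM under dCBP-30 at 2 h. At 6 h they were 983, 1409 and 1238 RPM against 1132, 1103 and 608 RPM, and overlapped (log2 fold change -0.35, SE 0.20, adjusted p = 0.17, edgeR). At 24 h the libraries held 927, 1434 and 1381 RPM against 448, 498 and 512 RPM, giving a log2 fold change of -1.36 (SE 0.21, adjusted p = 9.0e-06, edgeR), and -0.83 without the TMM factors. T>C reads at 24 h were 54.5, 75.8 and 75.6 RPM under DMSO and 21.9, 25.7 and 21.6 RPM under dCBP-30 (-1.57, SE 0.16, adjusted p = 5.1e-12, edgeR), and -0.91 with libraries scaled by their T>C reads. All 3 dCBP-30 libraries lay below all DMSO libraries in both measures. The T>C change at 6 h was -0.10 (SE 0.16, adjusted p = 0.71, edgeR), positive under either other scaling. From 6 to 24 h the change became more negative by 1.47 in T>C reads (difference -1.47, SE 0.23, adjusted p = 2.0e-06, edgeR) and 1.01 in total reads (difference -1.01, SE 0.29, adjusted p = 0.0098, edgeR).

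H3-3A and H3-3B encode the same H3.3 protein, which is laid down outside replication by the HIRA and DAXX chaperones, and their new messages moved apart. H3-3B had total reads of 947, 1023 and 834 RPM under DMSO and 961, 1060 and 1162 RPM under dCBP-30 at 2 h. At 6 h they were 690, 896 and 843 RPM against 1563, 1463 and 1016 RPM (log2 fold change 0.73, SE 0.14, adjusted p = 0.00011, edgeR), and at 24 h 713, 895 and 827 RPM against 1543, 1631 and 1623 RPM (0.98, SE 0.14, adjusted p = 1.1e-06, edgeR). The groups were apart at 6 and 24 h, and the change at 24 h lay just under 2-fold, passing it without replicate 1 of dCBP-30 or replicate 2 of DMSO and, at 1.50, without the TMM factors. T>C reads of H3-3B were 124, 151 and 116 RPM under DMSO and 173, 195 and 214 RPM under dCBP-30 at 2 h. They rose from 101, 132 and 113 RPM to 201, 218 and 151 RPM at 6 h (0.72, SE 0.15, adjusted p = 6.3e-05, edgeR) and from 103, 131 and 139 RPM to 173, 158 and 201 RPM at 24 h (0.52, SE 0.14, adjusted p = 0.0029, edgeR). Scaled by T>C reads these changes were 1.04 and 1.17, over 2-fold.

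H3-3A had total reads of 3244, 3085 and 3571 RPM under DMSO and 2787, 2553 and 2114 RPM under dCBP-30 at 6 h, and of 2963, 3549 and 3504 RPM against 2376, 2242 and 2556 RPM at 24 h. The groups were apart, with log2 fold changes of -0.41 (SE 0.11, adjusted p = 0.0041, edgeR) and -0.48 (SE 0.11, adjusted p = 0.00053, edgeR). Without the TMM factors they were -0.09 (adjusted p = 0.48) and 0.04 (adjusted p = 0.74), so the direction in total reads rests on those factors. In T>C reads, libraries held 136, 124 and 109 RPM under DMSO and 89.3, 82.5 and 68.0 RPM under dCBP-30 at 2 h. T>C reads fell from 123, 113 and 135 RPM to 70.6, 69.8 and 75.3 RPM at 6 h (-0.78, SE 0.14, adjusted p = 1.5e-05, edgeR). At 24 h they fell from 135, 162 and 165 RPM to 65.4, 51.4 and 66.4 RPM (-1.33, SE 0.14, adjusted p = 1.9e-11, edgeR). They stayed lower under every scaling, at -0.68 at 24 h with libraries scaled by their T>C reads, which is under 2-fold. Of the H3-3A reads, 97.8% were counted as mapping to more than 1 place, against at most 0.364% for the other members, so its counts may include reads of near-identical copies and are uncertain.

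**Figure D3:**
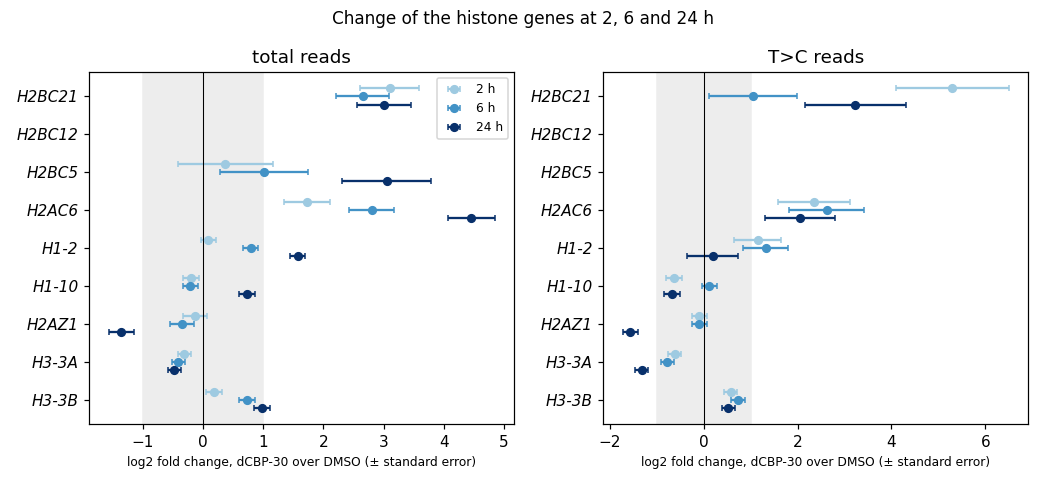
Log2 fold change (dCBP-30 over DMSO, ± standard error of the fit) of the histone genes at 2, 6 and 24 h in total reads (left) and T>C reads (right), with the range under 2-fold shaded; H2BC12 is left out as it had no reads under dCBP-30 at 24 h, and H2BC5 had too few T>C reads. H2AC6 moves from 1.73 to 4.46 in total reads, while H2AZ1 lies near 0 at 2 h and at -1.36 at 24 h.

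The other 89 histone genes give the surroundings. In total reads 25 of them could be tested, with 2 called higher (H3C6 and H2BC11, named after their values were seen) and 0 lower at 6 h and 1 higher and 5 lower at 24 h (median log2 fold change 0.32 and -0.27). Shares of all genes were 7.54% higher and 8.64% lower at 6 h, and 15.1% and 16.0% at 24 h. H3C6 and H2BC11 had 1 and 17 reads over the DMSO libraries at 6 h, against 52 and 145 under dCBP-30. Both entered the test mainly through dCBP-30 libraries, so these calls carry no weight of their own. In T>C reads 12 could be tested, with none called at 6 h and 7 lower at 24 h (median 0.14 and -2.13). For all genes these shares were 2.41% higher and 17.0% lower at 6 h, and 2.27% and 31.0% at 24 h. The number of all genes called lower at 24 h was 3140, and 1491 with libraries scaled by their T>C reads. The most abundant, H4C3, a replication-dependent H4 gene whose counted 3′ UTR ends 5 bases after a stem-loop, fell by 2.85 on the log2 scale in total reads at 24 h (SE 0.21, adjusted p = 1.7e-10, edgeR), from 905 ± 293 RPM to 125 ± 15.9 RPM (SD, n = 3 each). At 6 h it was 0.23 (adjusted p = 0.36, edgeR). H2AZ2, the other H2A.Z gene, was at -0.22 in total reads and -1.0 in T>C reads at 24 h, and MACROH2A1, which encodes macroH2A, at -0.78 and -1.08.

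Histone genes were then set side by side by the end of the counted 3′ UTR, a split made after the values were seen and given without a test. Among all 98, 53 had a 3′ UTR ending within 10 bases after a stem-loop, 15 ran past it and 30 had none. Of the first kind, 12 were tested in total reads at 24 h. H4C3, H2AC14, H2AC20, H2AC17, H2AC11 and H2BC12 were called lower and H1-2 was called higher, with a median of -2.14. Of the second kind, 8 were tested, and H2AC6, H2BC21 and H3C6 were called higher and none lower, with a median of 1.28. In the same comparison 15.1% of all genes were called higher and 16.0% lower. H2BC21 is the gene whose reads chose the list of members, and H3C6 had few reads under DMSO. The assignment of H2AC6 to this kind follows the annotation of its counted 3′ UTR. H2AX, which encodes the variant H2A.X and runs 1024 bases past its stem-loop, went the other way, at -0.61 in total reads (adjusted p = 0.00099, edgeR) and called lower at -1.24 in T>C reads (adjusted p = 6.7e-07, edgeR). H3C6 encodes H3, and its extended 3′ UTR of 1908 bases had a log2 fold change of 5.04 at 6 h and 4.37 at 24 h. Its total reads summed over a group were 1 under DMSO and 52 under dCBP-30 at 6 h, and 8 and 203 at 24 h. H3C6 thus entered this test mainly through its dCBP-30 libraries. The adjusted p-values (0.0015 and 0.00024, edgeR) carry no weight of their own, and the value of 5.04 depends on the prior count. Of those with no stem-loop, 14 were tested, with H2BC5 called higher and H2AZ1 lower, and a median of 0.38.

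**Figure D4:**
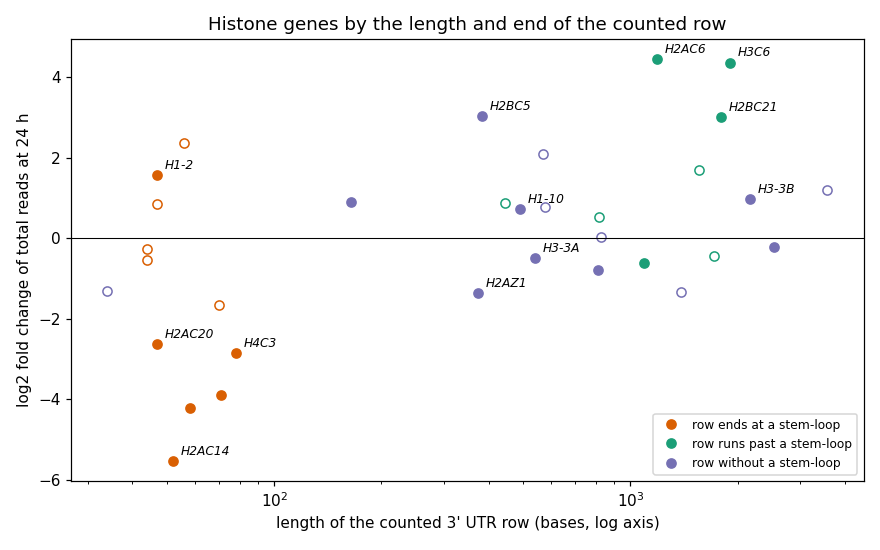
Log2 fold change of total reads at 24 h (linear axis) against the length of the counted 3′ UTR in bases (log axis) for the histone genes tested, apart from H2BC12, which had no reads under dCBP-30; filled points have an adjusted p under 0.05 and colors give the end of the counted 3′ UTR. Genes that end at a stem-loop lie under 100 bases and most of the filled ones are below 0, with H1-2 at 1.57 the exception. H2AC6, H2BC21 and H3C6, which run past a stem-loop, lie above 3, as does H2BC5, which has none in its counted 3′ UTR.

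Genes that act on histone messages and proteins are set beside all genes, of which 16.0% were called lower in total reads and 31.0% in T>C reads at 24 h, and 8.64% and 17.0% at 6 h. Of 30 S phase genes, all 30 were called lower at 24 h in total reads (median log2 fold change -2.95) and in T>C reads (median -3.37), among them the abundant RRM2 (-3.30 in total reads) and FEN1 (-3.67). At 6 h 1 was higher and 0 lower in total reads, and 0 higher and 1 lower in T>C reads. In bulk libraries, fewer cells in S phase and less of these RNAs per cell cannot be told apart, and their part in the values of the stem-loop genes was not tested. Of 20 genes for transcription and 3′ end processing of histone messages, 19 could be tested. At 24 h 4 were lower in total reads and 9 in T>C reads, and at 6 h 0 and 1. SLBP fell by 1.82 in total reads at 24 h (SE 0.12, adjusted p = 1.1e-12, edgeR), while TENT4B, a terminal nucleotidyltransferase, was at -0.16 (adjusted p = 0.19, edgeR) and SYMPK, a scaffold of the cleavage complex, at 0.20 (adjusted p = 0.34, edgeR). Of 32 histone chaperones, importers and exchange factors, 31 could be tested. At 24 h 16 were lower in total reads and 21 in T>C reads, among them SSRP1 (-1.34 in total reads), a subunit of FACT, MCM2 (-4.04), a helicase subunit that also binds H3 and H4 and is shared with the S phase list, and ASF1B (-2.06), which hands H3 and H4 to CAF-1. At 6 h 5 were lower in T>C reads, ASF1B was higher in total reads (1.21, adjusted p = 1.1e-07, edgeR) and 1 other gene of this list was lower in them. No gene of the 3 lists was called higher at 24 h.

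Across the 18 labeled libraries, the genes whose total reads followed H2BC21 most closely included SERTAD1 (Pearson r = 0.954), HEXIM1 (0.940), ZNF708 (0.922) and SLC35A2 (0.921), among 12302 genes on the log2(RPM + 1) scale. For H2AZ1 they were RAN (0.983), SLC25A5 (0.983), MRPL3 (0.983), UMPS (0.982) and FH (0.981). These values describe likeness over libraries that share treatment and depth, and carry no p.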

How the data were processed

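SLAM-seq libraries of MM1.S cells (18 with 4sU in 6 groups of 3, and 2 without) were analyzed. The authors trimmed 3′-end reads with Trim Galore, ran Slamdunk on the 3′ UTRs of hg38, collapsed reads by transcript and deposited, per library, raw counts of reads, T>C reads, multimapping reads, conversions and covered T positions. The methods state that multimapping and poor-quality reads were left out, yet 97.8% of the H3-3A reads deposited are listed as multimapping, so such reads are in the counts. The methods describe RNA of 4sU-labeled Drosophila S2 cells added as a spike-in before alkylation. Whether this spike-in entered any normalization is not given in the sources used here. None was used in the fits below, so changes are relative to other genes and a change in the total amount of RNA is not scaled. Of 97466 transcript rows, 89088 (91.4%) matched GENCODE release 44 by identifier. The others held 0.0789% to 0.1987% of reads. For each gene the transcript holding most reads in the 20 libraries was used, since transcripts of a gene repeat reads.

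Counts of the 18 labeled libraries were fitted in edgeR 4.0.16 (R 4.3.3, limma 3.58.1) by robust quasi-likelihood, 1 mean for each group, with depth taken from total reads and TMM factors and genes kept by filterByExpr (minimum count of 10). DESeq2 1.42.0 and Python 3.11.15 were used for the rest. The cutoffs were an adjusted p of 0.05 and a fold change of 2. The fit was tested on simulated data. Counting intervals were exact at 95%, and the floor was 3 counts. Replicates were not copies (chi-square per degree of freedom 8.36 to 47.5). Alternatives were other scalings, DESeq2, no filter, background subtraction, summed transcripts, a block for the replicate number, and each library left out in turn. Named genes were the 9 members, the 3 most abundant of each list and the 5 genes most like H2BC21 and H2AZ1; those named outside this rule are so marked, and some that it names are not reported here. The members and lists were chosen with earlier results of these data known. Promoters came from RefSeq (GRCh38.p14), where all 9 members matched, and stem-loops from GENCODE transcripts.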

Additional observations from a re-analysis of the deposited data

Results flagged for a closer look

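The change under dCBP-30 differed between 24 and 6 h, by the interaction term of edgeR's fit, for 5 of the 9 members. H2BC12 is among them on few reads. In total reads the difference (24 h minus 6 h, log2) was 1.66 for H2AC6 (adjusted p = 0.017), 0.78 for H1-2 (adjusted p = 0.0017) and 0.94 for H1-10 (adjusted p = 0.00036), so each of these was higher relative to DMSO at 24 h than at 6 h. It was -1.01 for H2AZ1 (adjusted p = 0.0098) and -8.94 for H2BC12 (adjusted p = 0.017). The fitted value for H2BC12 depends on the prior count, since it had no reads under dCBP-30 at 24 h, and is no measure of size. H2BC12 also reached this test mainly through its dCBP-30 libraries (3 with the minimum count, against 1 under DMSO). Its adjusted p therefore carries no weight of its own. In T>C reads the difference was -1.47 for H2AZ1 (adjusted p = 2.0e-06) and -0.79 for H1-10 (adjusted p = 0.016, edgeR). H1-10 thus differed in opposite directions in the 2 measures in this fit. Its difference in T>C reads was -0.44 (adjusted p = 0.23, edgeR) with libraries scaled by their T>C reads and -0.59 (adjusted p = 0.11, edgeR) without the TMM factors. Conversions per T>C read at 24 h were lower under dCBP-30, and the part of this was not tested. Groups of 3 libraries were not searched for single libraries that stand apart.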

How the results depend on the processing

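Of single-member log2 fold changes under alternatives other than leaving out a library, 334 kept their side of the cutoffs or moved by less than 1 standard error, 13 lost and 10 gained a call, 19 moved further without a call, and no called change turned its sign. With the background subtracted, 1 member had higher T>C reads at 6 h and 1 did at 24 h (2 and 2 in the fit described above), and with reads summed over transcripts 0 and 0; for these the cause was not tested. Scaling by T>C reads left 0 members lower in T>C reads at 24 h (2 above) and 1 with a lower change at 24 than at 6 h (2 above). Without the TMM factors these were 1 and 1, with 4 members higher in total reads at 6 h (2 above) and 1 lower at 24 h (2 above). These factors raise the dCBP-30 library sizes at 24 h, so leaving them out moves the median gene from 0.06 to 0.58 in total reads. Leaving out 1 library at a time gave 1 to 2 members higher at 6 h in T>C reads, 1 to 2 at 24 h, 4 to 5 higher and 1 to 2 lower in total reads at 24 h, and, for the difference between 24 and 6 h, 1 to 3 lower in T>C reads and 2 to 3 higher in total reads. Same-numbered libraries did not deviate together (correlations of -0.25 to 0.06), so the numbers pair nothing, and with a replicate block the counts of members were the same: 2 and 0 (T>C, 6 h), 2 and 2 (T>C, 24 h), 2 and 0 (total, 6 h), and 4 and 2 (total, 24 h), higher and lower. Among all genes, counts moved by over 1.5 times as follows. In T>C reads, scaling by T>C reads gave 526 higher at 6 h, 779 higher and 1491 lower at 24 h, and 536 higher and 539 lower for the difference, and leaving out the TMM factors gave 525 higher at 6 h and 602 higher and 1763 lower at 24 h. Subtracting the background gave 133 higher at 24 h, summing transcripts 188 higher for the difference, and DESeq2 253 higher at 2 h. In total reads, leaving out the TMM factors gave 92 higher at 2 h, 1765 at 6 h and 3689 higher and 1061 lower at 24 h, DESeq2 96 higher at 2 h, and leaving out replicate 3 of DMSO 88 higher at 2 h. Without these changes, the values above were 164, 244, 230, 3140, 297, 920, 57, 928, 1861 and 1970. Depth limits H2BC21, H2BC5 and H2BC12 most, with 1020, 562 and 88 reads over the 20 libraries.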
